A study of Mus musculus with 72 samples.

Results

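Open chromatin inside introns was measured by ATAC-seq, in which a transposase cuts and tags accessible DNA, in 9 libraries of RAW264.7, a macrophage-like mouse line that derives from a BALB/c tumour. The members were the peaks whose short and detailed annotation both named an intron, so that no listed repeat or CpG island covered the peak's centre, and mitochondrial peaks were left out. This rule took 16293 of 51983 peaks (31.3%), and 16199 of them passed the filter on low values. The cells carried a lentiviral short hairpin, shNCOR against the corepressor gene Ncor1, shSMRT, named for the corepressor SMRT, or shGFP, whose target is the jellyfish gene for a fluorescent protein, as the control. Each group had 3 ATAC-seq libraries and 3 RNA-seq libraries, and the group names came from the sample titles. One protocol text for the accessibility libraries speaks of wild-type cells in triplicate wells, and the titles were followed here. One hairpin per gene in 1 transformed line limits the model, and since no label states that the 3 libraries per group stem from independent cultures, every p-value measures the spread between these libraries. Both knockdowns are set against the same 3 shGFP libraries, so their changes share those libraries' error.

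NCoR and SMRT are large scaffold proteins that bring histone deacetylase to nuclear receptors and other transcription factors that are bound to DNA without an activating ligand. Macrophages use liver X receptors (LXR), retinoic acid receptors (RAR) and peroxisome proliferator-activated receptors with such corepressors to hold lipid and inflammatory genes in check. Many of the enhancers that these factors occupy lie within introns, of the gene they regulate or of a neighbour, and accessible DNA is a common property of enhancers without being proof of one.

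Ncor1, the gene targeted in shNCOR cells, was measured first, as a check of the labels. Ncor1 RNA was 3.61, 4.20 and 4.30 RPKM (reads scaled by transcript length and library depth) in shNCOR cells, 18.9, 20.2 and 20.2 RPKM in shSMRT cells, and 18.4, 20.2 and 18.7 RPKM in shGFP cells. The shNCOR libraries lay below all others, and Ncor1 RNA fell by 2.00 ± 0.06 on the log2 scale in shNCOR cells relative to shGFP cells (limma, SE). The mapped depth of the accessibility libraries ran from 6.06 to 10.8 M reads, which left a median of 30 to 56 reads on an intron peak. Macrophage lineage genes summed to 8877 to 9150 RPKM in shNCOR libraries, 10848 to 11393 RPKM in shSMRT libraries, and 7791 to 7934 RPKM in shGFP libraries. Most of each sum was Lyz2, a lysozyme gene, at a mean of 6548 RPKM in shNCOR, 8104 RPKM in shSMRT and 5195 RPKM in shGFP cells. Lymphocyte genes summed to at most 2.19 RPKM in any library, and 7 of the 14 were listed at 0 in all 9 libraries. In such bulk samples fewer cells of a type and less RNA per cell cannot be told apart.

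No genome of the peaks' build was used, so the bases of the peaks themselves are not printed, and the RefSeq promoter table of GRCm38.p6 gives the nearest sequence that bears on them. The 4 stretches below were chosen after the values were seen, because the named gene holds a run of intron peaks that changed together with the start site peak, or because an intron peak reaches over the start site itself. Each is the 250 bases before the RefSeq start, on the minus strand, 5′ to 3′, with the last base next to the start. Capitals mark motif matches a script found on either strand. A match is a description of letters and not a binding site. Apart from AP-1, the patterns differ from those planned for the peaks and were not fixed before these genes were picked. The shares of windows given with them are therefore descriptions and no test of a match.
Rarb, chr14:16575477-16575726: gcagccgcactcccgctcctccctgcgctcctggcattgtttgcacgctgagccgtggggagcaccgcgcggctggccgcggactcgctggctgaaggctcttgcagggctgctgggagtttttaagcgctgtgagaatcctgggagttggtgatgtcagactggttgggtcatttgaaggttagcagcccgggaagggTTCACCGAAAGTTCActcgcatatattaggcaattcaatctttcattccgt
Abca1, chr4:53159896-53160145: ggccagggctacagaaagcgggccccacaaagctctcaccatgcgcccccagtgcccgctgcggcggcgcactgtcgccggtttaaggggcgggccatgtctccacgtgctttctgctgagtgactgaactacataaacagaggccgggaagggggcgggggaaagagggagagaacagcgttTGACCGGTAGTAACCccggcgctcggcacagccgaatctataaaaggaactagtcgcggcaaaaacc
Arhgef10l, chr4:140665888-140666137: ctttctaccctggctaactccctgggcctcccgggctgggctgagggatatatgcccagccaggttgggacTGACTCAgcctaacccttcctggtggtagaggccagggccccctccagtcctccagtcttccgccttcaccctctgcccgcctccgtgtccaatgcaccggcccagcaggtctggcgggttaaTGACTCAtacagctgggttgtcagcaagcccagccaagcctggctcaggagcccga
Fcgr1, chr3:96293970-96294219: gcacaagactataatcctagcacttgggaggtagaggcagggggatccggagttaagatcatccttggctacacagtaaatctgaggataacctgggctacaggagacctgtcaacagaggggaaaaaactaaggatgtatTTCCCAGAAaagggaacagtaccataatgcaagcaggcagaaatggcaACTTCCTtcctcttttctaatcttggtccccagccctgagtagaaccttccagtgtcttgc
In Rarb the capitals mark a direct repeat of RAR core sites spaced by 5 bases (DR5, searched as TTCANNNNNNNTTCA) from base -51 to -37, and 353 of 32851 promoter windows of the same length hold one (1.07%). An interferon-activation pattern (GAS, TTCNNNGAA), from -51 to -43, overlaps it. In Abca1 the capitals mark a DR4, the repeat that LXR and its partner read (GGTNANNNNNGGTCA), on the other strand from -67 to -53, which 58 windows hold (0.177%). Arhgef10l has the AP-1 pattern TGANTCA, which reads the same on both strands, at -179 to -173 and at -56 to -50, and 2217 windows hold at least 1 (6.75%). Fcgr1 has a GAS match at -109 to -101 (7.02% of windows) and the PU.1 pattern AGGAAGT on the other strand at -61 to -55 (7.69%). The parts of the Lyz1 and Plin2 intron peaks before the start site, 92 and 133 bases long, were searched too. They held no match to any of these patterns and are not printed.

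Intron peaks were distal for the most part. The median distance from the peak centre to the nearest start site was 18741 bp, with 594 peaks (3.65%) within 1 kb, 4717 (29.0%) from 1 to 10 kb, 7448 (45.7%) from 10 to 50 kb and 3534 (21.7%) beyond 50 kb. First introns held 5627 peaks (34.5%), second introns 2772 (17.0%) and last introns 9.34%. The nearest start site belonged to the host gene of the intron for 11801 peaks (72.5%) and to another gene for 4476 (27.5%), which matters wherever a peak is tied to RNA. The peaks fell to 7563 gene names, of which 4124 had a single peak and 118 had 10 or more. Elmo1, an engulfment adaptor that activates Rac, had the most with 26, ahead of the forkhead factor gene Foxp1 with 23, the sphingomyelin synthase gene Sgms1 with 20 and the LIM-domain gene Lpp with 19.

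In size and level intron peaks resembled intergenic peaks more than promoter peaks. Their median width was 328 bp, against 337 bp for intergenic and 573 bp for promoter peaks. Accessibility is given throughout as reads per peak in a library scaled to 10 M reads, and the median over intron peaks of the shGFP mean was 49.2, against 48.1 for intergenic and 167 for promoter peaks. Per kilobase of peak the medians were 152, 147 and 288 in that order. The authors' peak lists of all 9 libraries held 7300 intron peaks (44.8%), a share close to the 44.1% of intergenic peaks and below the 83.4% of promoter peaks. Only 8 intron peaks were listed in the 3 shNCOR libraries and no other, 131 in the 3 shSMRT libraries and no other, and 138 in the 3 shGFP libraries and no other. Such peaks had to differ between groups by the way they were listed, so their calls are no separate support. They stayed in the fits and in all counts below. Of 130 tested peaks listed only in shSMRT libraries, 106 were called higher in shSMRT than in shGFP cells. Of 135 listed only in shGFP libraries, 41 were called lower with shNCOR and 42 with shSMRT. Of 8 listed only in shNCOR libraries, 3 were called higher with shNCOR.

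Libraries differed in how many of their reads lay in peaks at all. The share of mapped reads in any peak was 54.7, 55.7 and 55.4% in shNCOR libraries, 47.6, 49.9 and 49.5% in shSMRT libraries, and 54.0, 50.6 and 53.1% in shGFP libraries, so shSMRT libraries lay below all others. Of the reads in peaks, intron peaks took 23.6, 23.4 and 24.3% in shNCOR libraries, 25.5, 24.8 and 24.8% in shSMRT libraries, and 23.4, 24.0 and 24.1% in shGFP libraries. The 3 shSMRT libraries did not overlap the others. The difference was 1.18 percentage points against shGFP and 1.26 against shNCOR, each with an exact two-sided permutation p of 0.1, the smallest that 3 against 3 libraries allow, while the 2 other groups differed by -0.0800 points (exact p = 0.9). Taken over all mapped reads the differences changed sign. For shSMRT minus shGFP the difference was -0.291 points, with overlapping libraries (exact permutation p = 0.4). It was -0.846 for shSMRT minus shNCOR and 0.555 for shNCOR minus shGFP, each without overlap (exact permutation p = 0.1). Promoter peaks took less of the peak reads in shSMRT libraries, with means of 35.9 ± 0.900% in shNCOR, 32.8 ± 0.811% in shSMRT and 35.2 ± 0.636% in shGFP libraries (SD, n = 3 each; shSMRT minus shGFP -2.35 points, exact permutation p = 0.1).

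**Figure D1:**
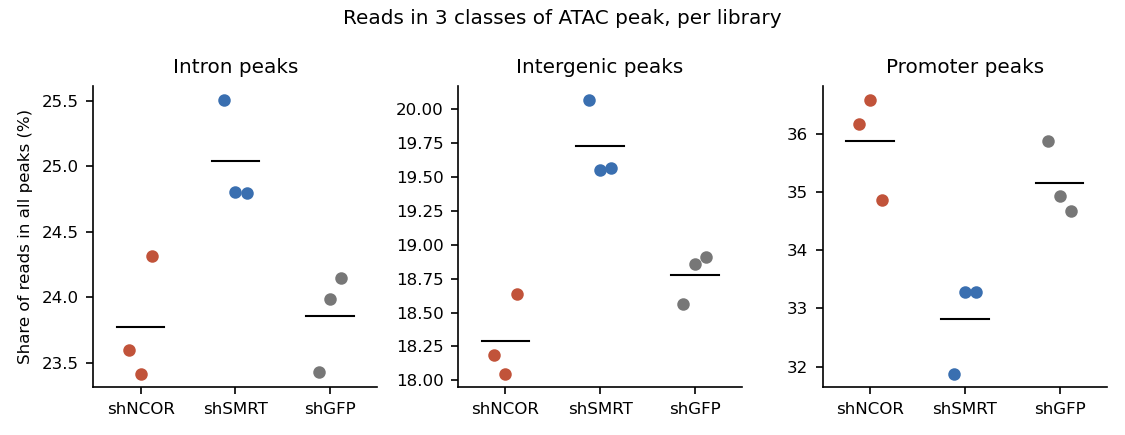
Share of a library's reads in all peaks, in percent, that lay in intron, intergenic and promoter peaks, with 1 point per library and a line at the mean of each group; the y axes do not start at 0. In intron peaks the shSMRT libraries sit at 24.8 to 25.5%, above the shNCOR and shGFP libraries, and in promoter peaks they sit below them at a mean of 32.8%.

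Relative to intergenic peaks of the same library, intron peaks stood slightly higher in shNCOR than in shGFP cells. The mean log2 level of intron peaks minus that of intergenic peaks was 0.069 ± 0.0020 in shNCOR, -0.00060 ± 0.0020 in shSMRT and 0.012 ± 0.0088 in shGFP libraries (SD, n = 3 each). The difference was 0.058 for shNCOR minus shGFP, -0.012 for shSMRT minus shGFP and -0.070 for shSMRT minus shNCOR, with no overlap between any 2 groups and an exact permutation p of 0.1 for each. These are shifts of a few percent in level. The median log2 change of shNCOR against shGFP was 0.050 over intron, 0.00098 over intergenic, 0.083 over promoter and 0.048 over all tested peaks. Intron peaks thus lay near the median of all peaks, and intergenic peaks below it. Against promoter peaks the mean log2 difference was -1.43 in shNCOR, -1.19 in shSMRT and -1.39 in shGFP libraries, so intron peaks lay closer to promoter peaks in shSMRT libraries by 0.21 than in shGFP libraries (exact permutation p = 0.1).

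Intron peaks differed between shNCOR and shGFP cells in both directions. With limma across all 51469 tested peaks and Benjamini-Hochberg adjusted p under 0.05, 896 intron peaks (5.53%) rose in shNCOR cells relative to shGFP cells and 683 (4.22%) fell, against 4.58% higher and 4.00% lower among all peaks. Intergenic peaks had 5.08% higher and 5.58% lower, and promoter peaks 3.06% higher and 1.43% lower. Called intron peaks with a change of at least 1 on the log2 scale numbered 185 higher and 277 lower, a count not made over all peaks. The 5th and 95th percentiles of the change were -0.71 and 0.65 over intron peaks, and -0.69 and 0.59 over all peaks. Of the calls, 537 of the higher (59.9%) and 596 of the lower (87.3%) were kept whichever of 3 other scalings was used, and scaling to the reads in peaks gave 576 higher and 826 lower, which turns the balance toward lower. Leaving out shGFP library 2 left 479 higher calls, and leaving out shGFP library 3 left 377 lower calls. Lower calls also fell to 412 without shGFP library 1 and to 435 without shGFP library 2, and higher calls to 556 without shGFP library 1.

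The clearest gain in shNCOR cells was at Rarb, the gene for RAR-beta, which is itself a textbook target of retinoic acid. All 6 of its intron peaks were called higher in shNCOR than in shGFP cells. The peak at chr14:16598062-16598541, at -22825 bp from the start site, had 170, 134 and 159 reads in shNCOR libraries, 62.9, 43.1 and 41.0 in shSMRT libraries, and 24.6, 45.9 and 29.5 in shGFP libraries. Every shNCOR library was above every other, and the shSMRT and shGFP ranges overlapped. The log2 change was 2.09 ± 0.20 for shNCOR (limma, SE; adjusted p = 1.1e-10) and 0.51 ± 0.20 for shSMRT (adjusted p = 0.072), both against shGFP. The peak 61872 bp into the gene had 137, 130 and 121 reads in shNCOR, 28.2, 36.3 and 28.3 in shSMRT, and 30.2, 32.8 and 30.4 in shGFP libraries, so here shSMRT and shGFP libraries were alike within their spread. Over the 6 peaks the shNCOR change ran from 1.46 to 2.09, and each call held in every scaling. In shSMRT cells 1 of the 6 was called, the peak 27748 bp into the gene, at 0.68 ± 0.18. All 6 were lower in shSMRT than in shNCOR cells, by -1.91 to -0.78.

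The start site peak of Rarb, at -69 bp from the start nearest to it, moved with them. Whether that peak covers the DR5 printed above was not checked. The peak had 183, 124 and 169 reads in shNCOR, 47.9, 29.5 and 29.7 in shSMRT and 44.7, 33.8 and 24.0 in shGFP libraries, a change of 2.08 ± 0.22 in shNCOR cells. Rarb RNA was 10.3, 10.6 and 10.5 RPKM in shNCOR, 0.851, 0.763 and 1.21 RPKM in shSMRT and 0.694, 0.860 and 0.513 RPKM in shGFP cells. The shNCOR cells stood far above the rest, with a log2 change of 2.77 ± 0.10 (adjusted p = 3.9e-09), while shSMRT cells had 0.20 ± 0.10 (adjusted p = 0.11) with overlapping ranges.

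Abca1, the cholesterol exporter and a classic LXR target, likewise had all 6 of its intron peaks called higher in shNCOR cells, by 0.46 to 2.10, and 4 of the 6 calls held in every scaling. The peak that moved most, 10007 bp into the gene at chr4:53149737-53150039, had 66.0, 57.8 and 78.7 reads in shNCOR, 25.4, 15.9 and 25.5 in shSMRT and 6.71, 13.1 and 17.5 in shGFP libraries. The shNCOR libraries were above all others, and shSMRT libraries overlapped shGFP libraries. The change was 2.10 ± 0.30 in shNCOR cells (adjusted p = 2.1e-06) and 0.67 ± 0.30 in shSMRT cells (adjusted p = 0.12). In shSMRT cells the 6 log2 changes against shGFP ran from -0.07 to 0.71, with adjusted p of 0.12 or more.

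Abca1 RNA nevertheless rose with both hairpins. It was 2.35, 2.24 and 2.13 RPKM in shNCOR, 1.58, 1.70 and 1.64 RPKM in shSMRT and 0.333, 0.448 and 0.340 RPKM in shGFP cells, with no overlap among the 3 groups. The log2(RPKM + 1) change was 1.24 ± 0.07 in shNCOR and 0.94 ± 0.07 in shSMRT cells. The start site peak changed by 0.59 ± 0.13 in shNCOR and by 0.13 ± 0.13 (adjusted p = 0.51) in shSMRT cells.

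The 10 intron peaks with the highest gains in shNCOR cells, taken as 1 per gene, rose by 1.61 to 2.10. Beside Abca1 and Rarb they were named for Ubtd2, Il17c, Cpne4, Ccdc54, Gch1, Slc12a8, Wdr37 and Fam20a. Gch1, the enzyme that starts tetrahydrobiopterin synthesis, had 42.2, 18.1 and 35.5 reads in shNCOR, 38.5, 39.7 and 28.3 in shSMRT and 4.47, 5.62 and 7.38 in shGFP libraries at a peak 23426 bp into the gene. Both knockdowns lay above all shGFP libraries and overlapped each other, with changes of 1.72 ± 0.34 and 1.90 ± 0.34. Its RNA went the other way in shNCOR cells, at 5.98, 5.90 and 5.99 RPKM against 8.77, 7.94 and 7.05 RPKM in shGFP cells (-0.35 ± 0.07). Fam20a, a secretory-pathway pseudokinase, gained only with shNCOR, where its peak had 42.2, 57.8 and 45.7 reads, against 19.7, 10.2 and 8.49 in shSMRT and 4.47, 15.0 and 23.1 in shGFP libraries, and the difference between the knockdowns was called too, at -1.63 for shSMRT minus shNCOR. The Ubtd2 peak lies in an intron of Sh3pxd2b, a podosome scaffold, and that of Wdr37 in Adarb2, so the gene named is not the host.

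Losses in shNCOR cells reached further. A peak 426276 bp into Mdga2, a cell-surface protein of neurons, had 2.64, 6.60 and 2.54 reads in shNCOR, 55.4, 54.5 and 59.4 in shSMRT and 102, 116 and 122 in shGFP libraries. The 3 groups did not overlap, and the change was -3.75 ± 0.26 in shNCOR cells (adjusted p = 1.6e-15) and -0.94 ± 0.26 in shSMRT cells. A second peak in an intron of Mdga2, credited to the distant gene Rpl10l, had 10.6, 13.2 and 12.7 reads in shNCOR, 40.4, 48.8 and 55.2 in shSMRT and 61.5, 57.2 and 84.8 in shGFP libraries, so it was also lowest with shNCOR. Mdga2 RNA was listed at 0 in 8 of the 9 libraries and at 0.005 RPKM in the other.

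Tmem108 was also lowest with shNCOR, at a peak 14288 bp into the gene with 25.1, 54.5 and 38.1 reads in shNCOR, 191, 184 and 211 in shSMRT and 209, 248 and 229 in shGFP libraries. The change of -2.45 ± 0.15 (adjusted p = 2.5e-17) belonged to shNCOR, and shSMRT had -0.22 ± 0.15 (adjusted p = 0.33). Its RNA was listed at 0 in all 9 libraries. The peak credited to Rpp14 lies in an intron of Abhd6, a lipase of monoacylglycerols, and had 5.28, 8.25 and 7.61 reads in shNCOR, 64.8, 70.3 and 60.8 in shSMRT and 85.0, 63.8 and 93.1 in shGFP libraries. It changed by -2.82 ± 0.25 in shNCOR cells. Abhd6 RNA also fell, to 2.67, 3.27 and 2.37 RPKM in shNCOR cells, against 7.38, 6.94 and 7.08 RPKM in shGFP cells (-1.12 ± 0.10), whereas Rpp14 RNA changed by -0.14 ± 0.04.

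A peak in an intron of Cd300e, an activating receptor of monocytes, is credited to its neighbour Cd300ld3 and was low with both hairpins. It had 13.2, 9.90 and 3.81 reads in shNCOR, 15.0, 18.1 and 8.49 in shSMRT and 74.9, 41.2 and 46.1 in shGFP libraries. Cd300e RNA was 0.115, 0.070 and 0.156 RPKM in shNCOR, 0.582, 0.328 and 0.434 RPKM in shSMRT and 2.66, 2.87 and 2.69 RPKM in shGFP cells, so host and peak fell together. Cd300ld3 RNA instead rose by 0.61 ± 0.13 in shNCOR cells. The other members of the 10 largest losses were named for Chst11, Slc39a6, Rnf216, Col4a2, which lies in Col4a1, and Tox2, and over all 10 the changes ran from -3.75 to -2.07. At Chst11, a chondroitin sulfotransferase gene, the peak fell by 2.30 ± 0.35 in shNCOR cells while its RNA changed by 0.12 ± 0.09 (adjusted p = 0.31). The lowered Rnf216 peak lies on the promoter window of an unnamed transcript, Gm43380, in the RefSeq table.

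**Figure D2:**
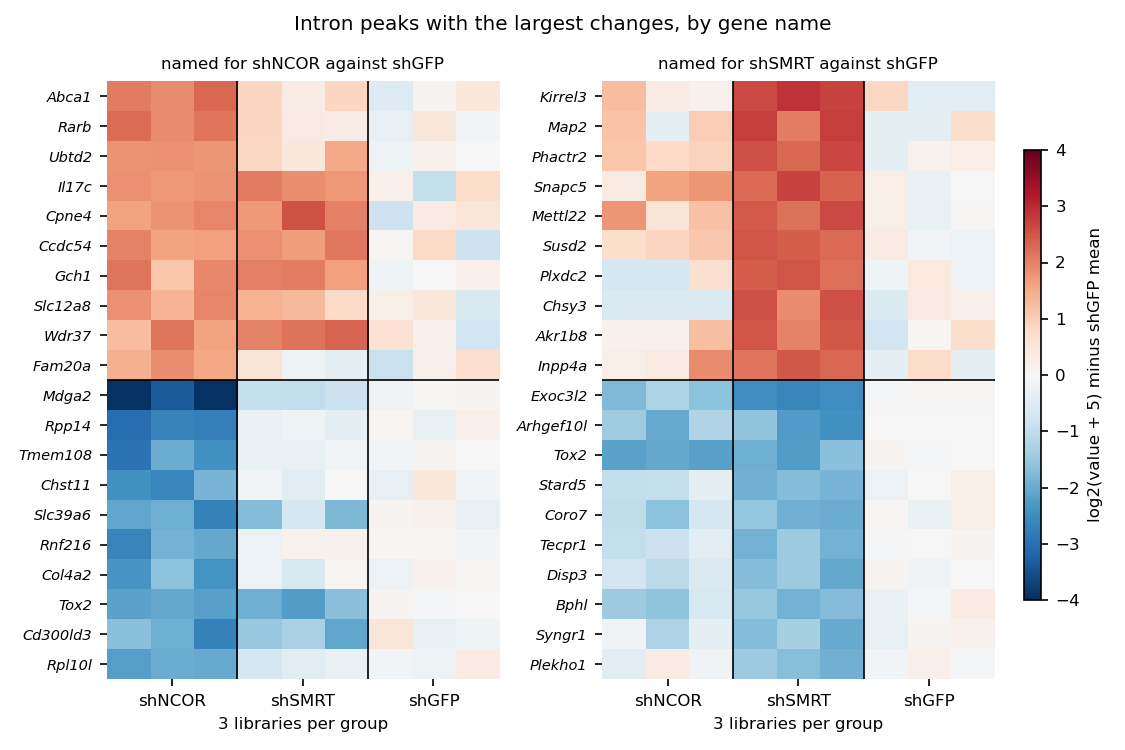
Heat map of log2(reads + 5) minus the shGFP mean, by colour, in each of the 9 ATAC libraries (columns) for the 10 intron peaks that gained most and the 10 that lost most against shGFP (rows, by gene named), in shNCOR at the left and shSMRT at the right. Mdga2 is the darkest blue row, with a fitted change of -3.75 in shNCOR cells, and Kirrel3 heads the shSMRT gains at 2.75.

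Some genes had several called intron peaks. Of 1280 genes with a called intron peak in shNCOR cells, 208 had 2 or more calls, and for 113 of these all calls were higher, for 64 all lower and for 31 mixed. In shSMRT cells 373 of 1905 such genes had 2 or more calls, of which 140 were all higher, 132 all lower and 101 mixed. How many would share a direction by chance was not tested. Sema5a, an axon-guidance semaphorin, had 6 of 8 peaks lower, by -0.88 to -0.51, and each held in every scaling. Its peak 176230 bp into the gene had 27.7, 28.1 and 29.2 reads in shNCOR, 46.0, 70.3 and 43.9 in shSMRT and 49.2, 61.9 and 59.0 in shGFP libraries, so the 3 shNCOR libraries lay below the other 6 at this peak. With shSMRT 3 of the 8 were lower, by -0.66 to -0.62. Sema5a RNA fell to 1.29, 1.19 and 1.34 RPKM in shNCOR cells, against 3.58, 4.17 and 3.82 RPKM in shGFP cells (-1.10 ± 0.08). Arhgap24, which turns off Rac, had 6 of 12 peaks lower, by -1.71 to -0.49, and RNA of 0.244, 0.237 and 0.296 RPKM in shNCOR, against 1.21, 1.69 and 1.73 RPKM in shGFP cells (-1.01 ± 0.10). Peaks of 1 gene are not replicates of each other.

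Rasgef1b, a guanine nucleotide exchange factor gene that macrophages induce early on stimulation, was mixed. Of 16 peaks credited to it, 14 lie in introns of the noncoding gene A930011G23Rik next door and 2 in Rasgef1b. With shNCOR 5 were higher and 1 lower. The peak 1355 bp into Rasgef1b had 56.8, 61.1 and 73.6 reads in shNCOR, 46.0, 63.5 and 36.8 in shSMRT and 26.8, 26.2 and 38.7 in shGFP libraries, a change of 0.96 ± 0.24 in shNCOR cells. The lowered one, at -161521 bp from the start site, had 14.5, 23.1 and 22.8 reads in shNCOR libraries, against 57.0, 46.9 and 41.5 in shGFP libraries. Rasgef1b RNA was higher, at 22.4, 23.7 and 22.7 RPKM in shNCOR, 29.5, 27.8 and 29.8 RPKM in shSMRT, and 12.5, 13.1 and 11.1 RPKM in shGFP cells.

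**Figure D3:**
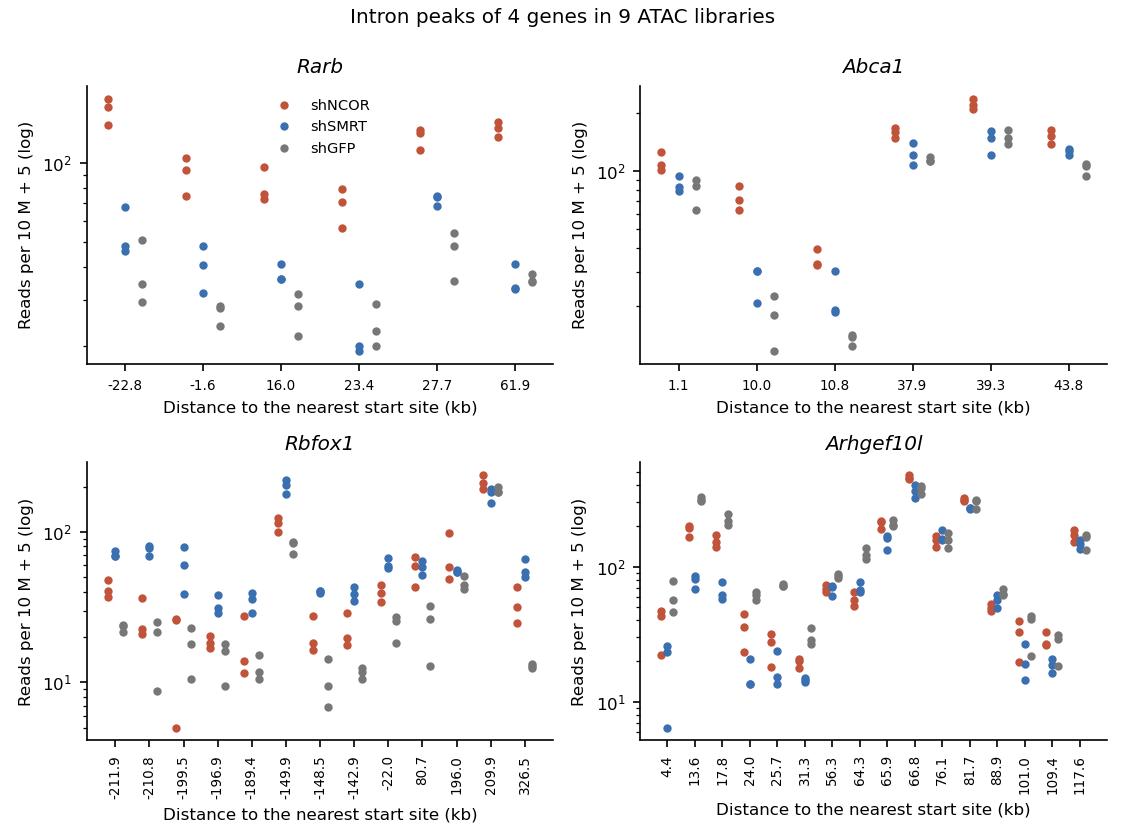
Reads per 10 M plus the pseudocount of 5, on a log axis, at each intron peak of Rarb, Abca1, Rbfox1 and Arhgef10l, with 1 point per library and the peaks ordered by distance to the nearest start site in kb. At all 6 Rarb peaks the shNCOR points lie above the shSMRT and shGFP points, at most Rbfox1 peaks the shSMRT points lie highest, and at the Arhgef10l peaks nearest the start, such as that 13625 bp in, they lie lowest.

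The shSMRT hairpin gave more called intron peaks, with 1313 gains (8.11%) and 1144 losses (7.06%) in shSMRT cells relative to shGFP cells, against 6.81% higher and 10.9% lower among all peaks. Promoter peaks pulled the background down, with 1.52% higher and 22.7% lower, while intergenic peaks had 9.58% higher and 8.31% lower. At a log2 size of 1 or more 564 intron peaks were higher and 150 lower, again not counted over all peaks. Here the 5th and 95th percentiles were -0.65 and 0.88 over intron peaks, and -0.64 and 0.82 over all peaks. Of the calls, 1262 of the higher (96.1%) and 580 of the lower (50.7%) were kept in all 3 other scalings. Scaling to reads in peaks, which moves the median of all peaks from -0.09 to 0.00 in this comparison, gave 1704 higher and 626 lower. Lower calls numbered 613 without shGFP library 1 and 682 without shGFP library 3. Among peaks in the lists of all 9 libraries 504 (6.93%) were higher and 731 (10.1%) lower, and among peaks in fewer lists 809 were higher and 413 lower.

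Rbfox1, a splicing regulator best known from neurons, gave the longest run of gains with shSMRT, at 11 of 13 peaks, by 1.21 to 2.18, all kept in every scaling. The peak at -210812 bp from the start site had 15.8, 31.4 and 17.8 reads in shNCOR, 75.1, 64.7 and 73.6 in shSMRT and 20.1, 3.75 and 16.6 in shGFP libraries. Only the shSMRT libraries were high, and the other 2 groups overlapped. At the peak 80727 bp into the gene both knockdowns were high, with 54.1, 38.0 and 63.4 reads in shNCOR, 59.1, 46.5 and 53.8 in shSMRT and 7.83, 27.2 and 21.2 in shGFP libraries. Rbfox1 RNA was 0.260, 0.528 and 0.286 RPKM in shNCOR, 1.82, 1.57 and 1.55 RPKM in shSMRT and 0.204, 0.264 and 0.238 RPKM in shGFP cells, a change of 1.10 ± 0.10 in shSMRT cells.

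Runx2, the master factor of bone-forming cells, had 7 of 10 peaks higher with shSMRT, by 0.43 to 1.22, and 4 higher with shNCOR. The peak 134260 bp into the gene had 50.1, 64.4 and 39.3 reads in shNCOR, 47.9, 28.4 and 25.5 in shSMRT and 6.71, 22.5 and 14.8 in shGFP libraries, so both knockdowns lay above shGFP. Runx2 RNA was 1.42, 1.19 and 1.48 RPKM in shNCOR, 0.754, 0.669 and 0.537 RPKM in shSMRT and 0.107, 0.123 and 0.219 RPKM in shGFP cells, with no overlap. Elmo1, with the most intron peaks, had 6 higher and 1 lower of 26 with shSMRT, and its RNA changed by 0.02 ± 0.04 (adjusted p = 0.75). Its peak 164893 bp into the gene had 79.8, 66.9 and 60.8 reads in shSMRT libraries, against 14.5, 9.37 and 24.0 in shGFP libraries.

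The 10 largest single gains with shSMRT, from 2.31 to 2.75, were named for Kirrel3, Map2, Phactr2, Snapc5, Mettl22, Susd2, Plxdc2, Chsy3, Akr1b8 and Inpp4a. Kirrel3, a cell-adhesion gene, had 10.6, 3.30 and 2.54 reads in shNCOR, 36.6, 44.2 and 38.2 in shSMRT and 6.71, 0 and 0 in shGFP libraries at a peak 186641 bp into the gene. The shSMRT libraries stood apart and the others overlapped. The fitted change was 2.75 ± 0.44, which depends on the added pseudocount of 5. The peak passed the filter on low values only through the shSMRT libraries, so its call is no separate support for the gain. Kirrel3 RNA rose with it, to 2.08, 1.72 and 1.96 RPKM in shSMRT cells, against 0.295, 0.250 and 0.180 RPKM in shGFP cells. Akr1b8, an aldo-keto reductase gene, gained at a peak 3172 bp into the gene, with 53.5, 36.3 and 52.4 reads in shSMRT libraries, against 1.12, 5.62 and 12.0 in shGFP libraries. Its RNA was 72.3, 70.0 and 72.2 RPKM in shSMRT cells, against 50.7, 50.8 and 47.6 RPKM in shGFP cells (0.52 ± 0.03).

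Among losses with shSMRT, Arhgef10l, a guanine nucleotide exchange factor gene, had 8 of 16 intron peaks lower, by -2.10 to -0.44, of which 7 held in every scaling. The peak 13625 bp into the gene at chr4:140634753-140635509 had 189, 160 and 194 reads in shNCOR, 76.0, 63.5 and 80.7 in shSMRT and 304, 301 and 325 in shGFP libraries. The 3 groups did not overlap, and the change was -0.76 ± 0.12 in shNCOR and -2.01 ± 0.12 in shSMRT cells (adjusted p = 4.6e-18). A start site peak of the gene lay at -30 bp from the start nearest to it. It had 92.4, 95.7 and 159 reads in shNCOR, 47.9, 47.6 and 46.7 in shSMRT and 210, 148 and 149 in shGFP libraries. The window with the AP-1 matches printed above belongs to another start of the gene than the 13625 bp are counted from. Whether the start site peak covers that window was not checked. Arhgef10l RNA moved less, at 23.5, 23.1 and 22.7 RPKM in shNCOR, 22.1, 22.3 and 23.4 RPKM in shSMRT and 28.7, 29.3 and 30.1 RPKM in shGFP cells. Both changes passed the test, at -0.33 ± 0.03 and -0.36 ± 0.03.

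Exoc3l2, an exocyst-like gene, lost most at a single peak. It had 40.9, 59.4 and 44.4 reads in shNCOR, 22.5, 20.4 and 22.6 in shSMRT and 142, 156 and 154 in shGFP libraries, 9344 bp into the gene, with no overlap among groups and a change of -2.53 ± 0.20 in shSMRT cells (adjusted p = 2.3e-13). Its RNA was 0.242, 0.377 and 0.359 RPKM in shNCOR, 0.246, 0.191 and 0.157 RPKM in shSMRT and 1.23, 1.38 and 1.33 RPKM in shGFP cells. Tox2, an HMG-box factor gene, was low with both hairpins, with 2.64, 3.30 and 2.54 reads in shNCOR, 3.76, 2.27 and 5.66 in shSMRT and 31.3, 27.2 and 28.6 in shGFP libraries. This Tox2 peak passed the filter on low values only through the shGFP libraries. The other peaks of the 10 largest losses were named for Stard5, Coro7, Tecpr1, Disp3, Bphl, Syngr1 and Plekho1, and over the 10 the changes ran from -2.53 to -1.69. Plcb4, a phospholipase gene, had 8 of 17 peaks lower, by -0.98 to -0.26, but only 3 of these calls held in every scaling and its RNA changed by -0.19 ± 0.05.

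Gains with shSMRT became more frequent with distance from the start site, and losses less frequent. Within 1 kb 3.72% of 591 tested intron peaks were higher and 9.81% lower, from 1 to 5 kb 6.06% higher and 9.26% lower, from 5 to 10 kb 7.24% and 7.71%, from 10 to 50 kb 8.35% and 6.23%, and beyond 50 kb 10.3% and 6.43% of 3513 peaks. First introns had 6.95% higher and 8.39% lower, and later introns 8.72% and 6.36%. With scaling to reads in peaks the higher share was 6.26% within 1 kb and 12.6% beyond 50 kb, and the lower share 4.57% and 3.67%, so the gradient of losses was much flatter in that scaling. Among peaks in all 9 lists the higher share was 3.08% and 8.74%, and the lower share 14.7% and 9.59%. With shNCOR the ends were closer, at 4.57% higher and 3.21% lower within 1 kb and 5.10% higher and 4.98% lower beyond 50 kb. These shares are descriptions without a test.

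**Figure D4:**
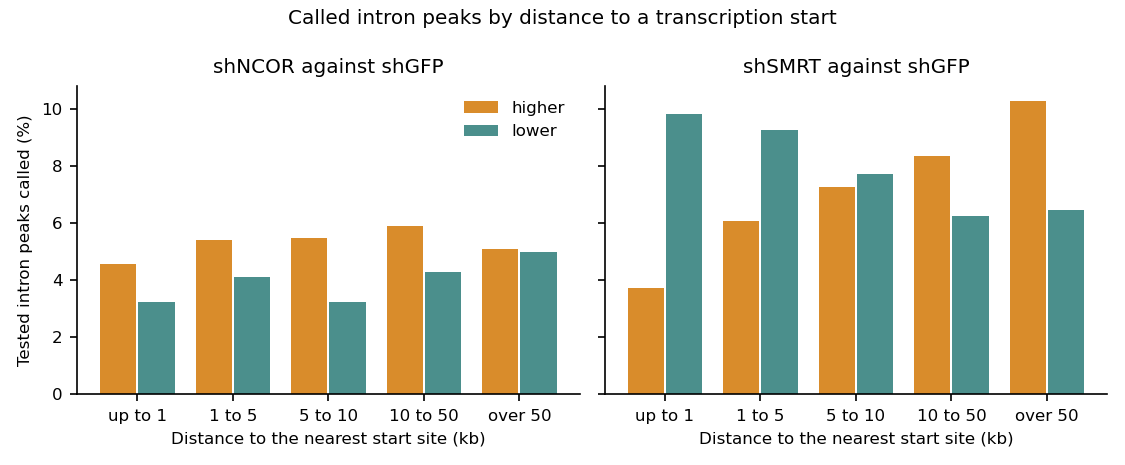
Bars give the percent of tested intron peaks called higher or lower in each knockdown against shGFP, by distance of the peak to the nearest start site in kb. With shSMRT the higher share is 3.72% within 1 kb and 10.3% beyond 50 kb, and with shNCOR the bars differ less between distances.

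Setting the knockdowns against each other, 1164 intron peaks (7.19%) were more and 1710 (10.6%) less accessible in shSMRT cells than in shNCOR cells, against 6.93% higher and 17.5% lower among all peaks. Scaling to reads in peaks gave 1699 higher and 529 lower, so the balance of directions here turned with the scaling, which moves the median of all peaks from -0.12 to 0.04. Of the calls, 840 higher and 420 lower were kept in all 3 other scalings. At a log2 size of 1 or more 520 were higher and 119 lower, not counted over all peaks. The 5th and 95th percentiles were -0.61 and 0.85 over intron peaks, and -0.60 and 0.85 over all peaks. The 5 highest were named for Gfra2, Chsy3, Ndst3, Mdga2 and Plxdc2, at 2.63 to 2.95, and the 5 lowest for Rarb, Pvt1, Opcml, Fam20a and Plekho1, at -1.91 to -1.60.

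Some of these peaks moved to opposite sides of shGFP. Ndst3, a heparan sulfate sulfotransferase gene, had 10.6, 0 and 7.61 reads in shNCOR, 68.5, 54.5 and 76.4 in shSMRT and 31.3, 16.9 and 24.9 in shGFP libraries, with shGFP between the knockdowns and no overlap. The change was -1.53 ± 0.35 in shNCOR and 1.30 ± 0.35 in shSMRT cells. Opcml, a neuronal adhesion gene, was the reverse, with 93.7, 75.9 and 88.8 reads in shNCOR, 17.8, 27.2 and 28.3 in shSMRT and 47.0, 41.2 and 57.2 in shGFP libraries. Pvt1, a long noncoding RNA gene next to Myc, lost only with shSMRT, with 20.7, 21.6 and 14.2 reads in shSMRT libraries, against 59.4, 106 and 78.7 in shNCOR libraries, which overlapped shGFP libraries at 57.0, 48.8 and 78.4, and shSMRT minus shNCOR was -1.84.

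The 14 gene lists are given by role, nuclear receptors and their targets first, and their medians are read beside the median over all tested intron peaks, a log2 change of 0.05 with shNCOR and -0.03 with shSMRT. Their peak counts are read beside the shares of all tested intron peaks, 5.53% higher and 4.22% lower with shNCOR, and 8.11% higher and 7.06% lower with shSMRT. The RNA counts of the lists are read beside the shares of all tested genes. Those were 17.6% higher and 20.0% lower with shNCOR, and 24.4% higher and 31.4% lower with shSMRT. Among 33 peaks of LXR receptors and targets, shNCOR had 8 higher (24.2%), of which 6 were at Abca1 and 5 held in every scaling, and 1 lower (3.03%). With shSMRT 0 were higher and 8 lower (24.2%), in 5 genes, of which 3 held in every scaling. The 0 higher with shSMRT is by limma, with 5 at an unadjusted p under 0.05 and 2 called by limma voom on the recovered reads. Their RNA had 7 higher and 3 lower of 16 with shNCOR, and 8 higher and 6 lower with shSMRT. Among 34 peaks of retinoid receptors and targets, shNCOR had 9 higher (26.5%), of which 6 were at Rarb and 7 held in every scaling, and 2 lower (5.88%), which both held. With shSMRT 1 was higher (2.94%) and 7 lower (20.6%), of which 4 held in every scaling. The median log2 change over the LXR list was 0.10 with shNCOR and -0.07 with shSMRT, and over the retinoid list 0.14 and -0.11.

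Dhrs3, which reduces retinaldehyde, was among the lowered retinoid genes, at a peak 13566 bp into the gene with 129, 80.9 and 124 reads in shNCOR, 87.3, 73.7 and 80.7 in shSMRT and 209, 146 and 171 in shGFP libraries. Both knockdowns lay below shGFP. Its RNA changed by 0.07 ± 0.03 (adjusted p = 0.13) in shNCOR and by -0.11 ± 0.03 in shSMRT cells. Ppard, a receptor gene on both the LXR and the lipid-uptake lists, had a peak 15104 bp into the gene with 120, 111 and 119 reads in shNCOR, 130, 137 and 123 in shSMRT and 160, 148 and 193 in shGFP libraries, a change of -0.49 ± 0.13 in shNCOR and -0.34 ± 0.13 (adjusted p = 0.052) in shSMRT cells. Ppard RNA was 4.27, 4.60 and 4.41 RPKM in shNCOR, 6.76, 5.68 and 6.12 RPKM in shSMRT and 9.26, 9.20 and 9.84 RPKM in shGFP cells. Of the 20 peaks of lipid-uptake genes 3 were higher and 1 lower with shNCOR, and 2 higher and 1 lower with shSMRT. Of 15 peaks of corepressor complex subunits, the one called with shNCOR was at Tbl1xr1, a subunit of both complexes, which rose by 0.67 ± 0.19.

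Of 45 tested peaks of 11 osteoclast genes, 9 (20.0%) were higher with shNCOR, in 4 genes and 5 of them in every scaling. With shSMRT 9 (20.0%) were higher, also in 4 genes and held in every scaling, and 1 (2.22%) was lower. The median log2 change over the 45 was 0.18 with shNCOR and 0.13 with shSMRT. In RNA 9 of 12 such genes were higher with shNCOR and 11 with shSMRT, where 17.6% and 24.4% of all tested genes were. Mitf, a factor that drives lysosome and osteoclast genes, had a peak at -46028 bp from the start site with 33.0, 21.5 and 30.4 reads in shNCOR, 42.2, 35.2 and 53.8 in shSMRT and 11.2, 15.9 and 7.38 in shGFP libraries, with no overlap among groups. The changes were 1.03 ± 0.31 and 1.58 ± 0.31. Mitf RNA followed the same order, at 15.7, 17.9 and 17.5 RPKM in shNCOR, 26.2, 27.6 and 26.4 RPKM in shSMRT and 10.8, 11.9 and 10.8 RPKM in shGFP cells. Of 29 lysosome peaks 4 (13.8%) were higher with shNCOR, 2 of them in every scaling. With shSMRT 2 (6.90%) were higher, both in every scaling, and 4 (13.8%) were lower, 1 of them in every scaling. In RNA 18 of 26 lysosome genes were higher with each.

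Of 29 interferon-stimulated genes 28 were lower in RNA with shNCOR and 21 with shSMRT, where 20.0% and 31.4% of all tested genes were. Of their 16 intron peaks 2 (12.5%) were lower with shNCOR and 1 (6.25%) was higher with shSMRT, at medians of -0.03 and -0.06. Usp18, the enzyme that strips the ubiquitin-like ISG15 from proteins, had 38.3, 42.9 and 48.2 reads in shNCOR, 77.9, 74.9 and 69.3 in shSMRT and 93.9, 80.6 and 76.5 in shGFP libraries at a peak 5605 bp into the gene, a change of -0.88 ± 0.19 in shNCOR cells. Usp18 RNA fell to 2.48, 2.51 and 2.31 RPKM in shNCOR cells and was 12.4, 12.6 and 14.6 RPKM in shSMRT cells, against 17.5, 17.7 and 19.0 RPKM in shGFP cells.

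Of 27 peaks of NF-kB and AP-1 inflammatory genes, 1 was higher and 3 lower with shNCOR, and 1 higher and 5 lower with shSMRT, where 2 of the 5 losses held in every scaling. In RNA 8 of 24 of these genes were higher and 11 lower with shNCOR, where 17.6% and 20.0% of all tested genes were. With shSMRT 19 were higher and 4 lower, where 24.4% and 31.4% of all tested genes were. The raised peak lies at Il1rn, the interleukin-1 receptor antagonist, with 137, 162 and 157 reads in shNCOR, 127, 149 and 140 in shSMRT and 97.3, 83.4 and 111 in shGFP libraries, and its RNA rose by 0.22 ± 0.03 and 1.16 ± 0.03. Of 16 peaks of cholesterol synthesis and uptake genes limma called 0 with shNCOR, with 1 higher and 1 lower at an unadjusted p under 0.05 and 0 by limma voom, and 3 (18.8%) lower with shSMRT. In RNA 10 of 19 of these genes were lower with shNCOR and 16 with shSMRT. Proliferation genes, of which 15 and 19 of 20 were lower in RNA, had 3 intron peaks, with 0 called by limma, 0 at an unadjusted p under 0.05 and 0 by limma voom.

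Of 42 peaks of macrophage lineage genes 4 were lower with shNCOR, and 4 were higher and 4 lower with shSMRT, at medians of 0.05 and -0.05. In RNA 8 of 21 of these genes were higher and 9 lower with shNCOR, where 17.6% and 20.0% of all tested genes were. With shSMRT 16 were higher and 3 lower, where 24.4% and 31.4% of all tested genes were. The lists of markers of other cell types held 2 to 10 tested intron peaks each. Lymphocyte genes had 2 of 6 peaks lower with shNCOR, both credited to Ms4a1, whose RNA was listed at 0 in all 9 libraries. Neutrophil and mast cell genes had 1 of 2 lower with shSMRT, and fibroblast and epithelial genes 1 higher and 1 lower of 10 with shSMRT, where their median was 0.37. The RNA of those lists summed to at most 0.760 and 1.73 RPKM in any library, and their part in the intron peak results was not tested.

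Fcgr1, the high-affinity receptor for immunoglobulin G and a macrophage lineage gene, shows an intron peak that is also a start site peak. That peak, centred 192 bp from the start and annotated to intron 1 of 5, covers the whole Fcgr1 window printed above. It had 132, 173 and 121 reads in shNCOR, 186, 197 and 218 in shSMRT and 210, 243 and 206 in shGFP libraries, a change of -0.62 ± 0.12 in shNCOR cells (adjusted p = 0.00025). A second intron peak 9298 bp into the gene had 18.5, 29.7 and 17.8 reads in shNCOR, 50.7, 34.0 and 56.6 in shSMRT and 58.1, 37.5 and 47.0 in shGFP libraries. At both peaks the shNCOR libraries were below all others. Fcgr1 RNA fell much further, to 0.339, 0.438 and 0.471 RPKM in shNCOR cells, with 9.52, 8.73 and 9.20 RPKM in shSMRT cells, against 17.4, 17.4 and 17.6 RPKM in shGFP cells.

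In all 250 tested intron peaks (1.54%) overlapped a RefSeq promoter window, of which 13 were higher and 11 lower with shNCOR, and 5 higher and 34 lower with shSMRT, or 5.20%, 4.40%, 2.00% and 13.6% of them. Over all tested intron peaks these shares were 5.53%, 4.22%, 8.11% and 7.06%. Plin2, which coats lipid droplets, had such a peak with 256, 229 and 250 reads in shNCOR, 169, 151 and 167 in shSMRT and 188, 175 and 149 in shGFP libraries, and its RNA was 119, 113 and 109 RPKM in shNCOR, 52.4, 49.9 and 50.4 RPKM in shSMRT and 46.5, 44.9 and 44.1 RPKM in shGFP cells. Lyz1, a lysozyme gene, had 116, 107 and 88.8 reads in shNCOR, 148, 154 and 177 in shSMRT and 44.7, 76.9 and 47.0 in shGFP libraries, so both knockdowns were above shGFP and shSMRT was highest.

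Called intron peaks were tied to RNA of the gene named more often in the same direction than in the other. RNA was tested for 10789 of 25124 genes, of which 17.6% were higher and 20.0% lower with shNCOR, and 24.4% higher and 31.4% lower with shSMRT. Of 649 peaks higher with shNCOR whose gene was tested, 291 (44.8%; exact binomial 95% interval 41.0 to 48.8%) had RNA higher and 14.5% RNA lower, against 23.2% RNA higher over all 10567 such intron peaks. Of 358 peaks lower with shNCOR, 181 (50.6%; 45.3 to 55.9%) had RNA lower, against 25.9% over all. With shSMRT 393 of 750 higher peaks (52.4%; 48.8 to 56.0%) had RNA higher, against 36.5% over all, and 330 of 806 lower peaks (40.9%; 37.5 to 44.4%) had RNA lower, against 25.7%. The intervals cover counting error only, and peaks of 1 gene share its RNA.

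Counting each gene once gave 208 of 513 genes (40.5%) against 21.0%, 126 of 272 (46.3%) against 23.3%, 267 of 554 (48.2%) against 32.2% and 222 of 564 (39.4%) against 27.8%, in the same order. With the host gene in place of the nearest start site the shares were 44.9, 52.6, 51.2 and 40.0%, against 23.1, 25.9, 37.8 and 25.1% over all. Peaks called in every scaling gave 45.0, 52.4, 52.7 and 46.5%, and peaks in all 9 lists 46.9, 56.2, 56.8 and 42.3%. A matching share over all peaks was not computed for either subset. Many called peaks had no tested RNA, 27.6% of those higher and 47.6% of those lower with shNCOR, and 42.9% and 29.5% with shSMRT, against 34.8% of all intron peaks. As a description over 4530 genes, which share libraries and are not independent, the mean log2 change of a gene's intron peaks and that of its RNA had Pearson's r of 0.27 and a Spearman coefficient of 0.25 with shNCOR, and 0.20 and 0.17 with shSMRT.

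**Figure D5:**
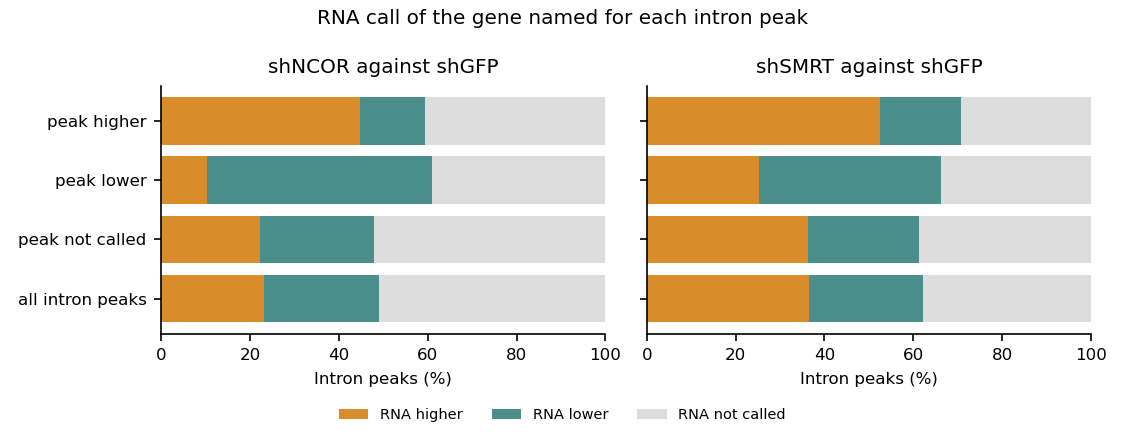
Stacked bars give the percent of intron peaks whose gene named was higher, lower or not called in RNA, for peaks called higher, called lower or not called and for all intron peaks with a tested gene, with shNCOR and with shSMRT against shGFP. With shNCOR 44.8% of higher peaks had RNA higher, against 23.2% of all intron peaks.

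At some called peaks the RNA of the gene named moved the other way. Angptl2, a secreted angiopoietin-like protein, was credited with a peak in an intron of Ralgps1 that had 111, 107 and 141 reads in shNCOR, 96.7, 121 and 97.6 in shSMRT and 63.7, 68.4 and 62.7 in shGFP libraries. Both knockdowns were above shGFP, by 0.82 ± 0.15 and 0.65 ± 0.15. Angptl2 RNA was 2.34, 2.07 and 2.20 RPKM in shNCOR, 30.2, 32.6 and 31.5 RPKM in shSMRT and 9.14, 10.0 and 8.23 RPKM in shGFP cells, so it fell with one hairpin and rose with the other. Morrbid, a noncoding RNA gene known for its role in the lifespan of myeloid cells, had a peak with 91.1, 94.1 and 79.9 reads in shNCOR libraries, against 67.1, 45.0 and 44.3 in shGFP libraries, while its RNA fell to 1.24, 1.02 and 1.80 RPKM in shNCOR cells, against 2.65, 3.37 and 3.27 RPKM in shGFP cells. With shSMRT the exceptions that differed most were Ccl9, a chemokine gene, Ctse, a cathepsin gene, and Lamc1, a laminin gene, with peaks lower by -0.35, -0.32 and -0.53 and RNA higher by 1.64, 1.40 and 1.39. None of those 3 peak calls held in every scaling.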

How the data were processed

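The members, gene lists and tests were chosen with earlier results of these data known. Per the file headers, the deposited peak table was annotated with HOMER against mm10 and holds, for each library, the reads in a merged peak scaled to 10 M mapped reads; this normalized read count is called reads here. The deposited RNA table holds RPKM per gene, per the file headers. Bowtie2, HISAT2, HOMER, MACS2 and DESeq2 are named in the submitters' processing notes, without versions; the other 54 of 72 samples of the series were not analysed here. Accessibility was fitted as log2(reads + 5) for all peaks with at least 10 in at least 3 of 9 libraries, and RNA as log2(RPKM + 1) for genes that reached 1 RPKM in 3 or more libraries, with limma 3.58.1 (trend) in R 4.3.3, 1 fit of 3 groups for each assay, and Benjamini-Hochberg adjustment over all features of a comparison. A fold change on these scales understates that of low features. Single values per library were compared by exact two-sided permutation tests. Scripts were tested on simulated data. Named peaks were the 10 largest changes in each direction (5 between knockdowns), 1 per gene, among calls whose groups did not overlap, leaving out names of predicted, RIKEN, microRNA and small nucleolar genes, with the calls that changed most on each list, the 5 genes with most calls and the 3 largest opposite RNA changes. Host genes came from the transcript named in the annotation. Start sites in the peak table lay within 2 bp of the RefSeq table for 11476 of 12231 peaks (93.8%). Each result was recomputed with changed pseudocounts, filters and scalings, with a replicate block, with library weights, in 6-library fits and without each library. The RNA of the gene targeted by shSMRT is not reported here.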

Additional observations from a re-analysis of the deposited data

How the results depend on the processing

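Counts of called intron peaks moved by over 1.5 times under some alternatives. Higher calls with shNCOR against shGFP numbered 576 with scaling to reads in peaks and 539 by limma voom on reads recovered from the scaled values, which was added once the data had been seen, and leaving out each library gave 479 to 688 higher and 377 to 693 lower. Higher calls with shSMRT against shGFP numbered 2079 by voom, and lower calls 626 with scaling to reads in peaks, 700 with median ratios and 736 by voom, with 613 to 920 when each library was left out. Lower calls with shSMRT against shNCOR numbered 529 with scaling to reads in peaks, 692 with median ratios, 697 with quantile normalization and 415 by voom. The share of reads in intron peaks changed sign when all mapped reads were the base, to 0.555, -0.291 and -0.846 percentage points for shNCOR minus shGFP, shSMRT minus shGFP and shSMRT minus shNCOR. The first also turned positive without some libraries, over a range from -0.349 to 0.0990. The percentage of higher peaks with higher RNA moved to 40.5 with shNCOR and 48.2 with shSMRT when each gene was counted once, and without the RNA filter to 31.6 and 33.0, where the lower peaks had 28.0 and 28.2. Without that filter, genes that did not reach 1 RPKM in 3 libraries are counted too. The cause of these moves was not tested. A replicate block gave 853 higher and 676 lower calls with shNCOR, 1309 and 1095 with shSMRT, and 1149 and 1630 between the knockdowns; same-numbered libraries did not deviate together, with correlations within 0.03 of 0, so the numbers do not pair them. The planned edgeR fit on recovered reads was not run, and limma voom was run on them instead. Of 151 named results, 129 kept their call in every alternative that used all libraries and 97 in every alternative, and 0 changed direction. Depth of 30 to 56 reads on a median intron peak limits what small changes could be detected.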
